A study of Drosophila melanogaster with 3 samples.

Results

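The transcriptome of the Act control larvae was described from 1 of the 3 libraries of the series, using all 13990 genes of its table. In its label the library carries the driver Act and no RNAi hairpin, and the protocol names its genotype Act>control. Actin5C-Gal4, the driver named in the design text, is active in most tissues, so it marks no single cell type. Further alleles, the age in hours and the sex of the animals are unstated in the labels.

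Per the labels' protocols, animals at the wandering stage were sorted for GFP, ground whole in Trizol and pooled, 10 to 20 larvae for the genotype. The source label instead reads wing disc cells. The library is a single pool, so no value below has a replicate, an SD or a test, and the counting intervals given cover counting error only.

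At the end of the last larval instar the steroid ecdysone triggers wandering and pupariation. In textbook accounts, salivary glands then make glue proteins, the fat body has filled the blood with larval serum proteins, the midgut is about to be replaced, and imaginal discs prepare to evert. Male larvae also carry testes with spermatocytes and coat their single X chromosome with the dosage compensation complex, which contains the roX RNAs. These features are the yardsticks for the levels below.

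Levels are FPKM, which counts fragments relative to transcript length and library size, and ranks run from 1 for the highest gene. The median over all genes was 15.4 FPKM. Of the 13990 genes, 11195 (80.0%) measured at least 1 FPKM and 8212 (58.7%) at least 10 FPKM, while 1571 (11.2%) were listed at 0 and share rank 12420. This 58.7% is the background against which the counts of list members at 10 FPKM or more are read. The low values lay at steps of whole fragments that gave a depth of about 6040000 fragments, with 3 fragments on a transcript of 1000 nt worth 0.629 FPKM. A listed 0 can also be a failed estimate in a file without counts.

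The 5 marker genes lay far apart in this order. ImpE2, an ecdysone-inducible gene of imaginal disc epithelia, was rank 46 at 2629 FPKM, from about 23768 fragments (95% counting interval 2596 to 2663 FPKM). The chitinase gene Cht5, which acts in moulting cuticle, was rank 87 at 1925 FPKM (1899 to 1950). The testis tubulin gene betaTub85D was rank 249 at 466 FPKM (453 to 480). Lsp1alpha, a larval serum protein gene of the fat body, was rank 603 at 207 FPKM (200 to 214), and roX1 was rank 824 at 161 FPKM. All of them lay high in the table, at percentiles from 94.1 to 99.7.

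In the dm6 genome, whose coordinates the Ensembl annotation shares, ImpE2 lies on chromosome 3L from 3510974 to 3512681 and Cht5 on chromosome 3R from 13767549 to 13770732. The marker betaTub85D lies on chromosome 3R from 9408383 to 9410282. Both other markers are on chromosome X, Lsp1alpha from 12490291 to 12492982 and roX1 from 3857230 to 3862697. Each of them except roX1, which has 5, has 1 annotated transcript, so only roX1 has no fragment count read back.

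**Figure D1:**
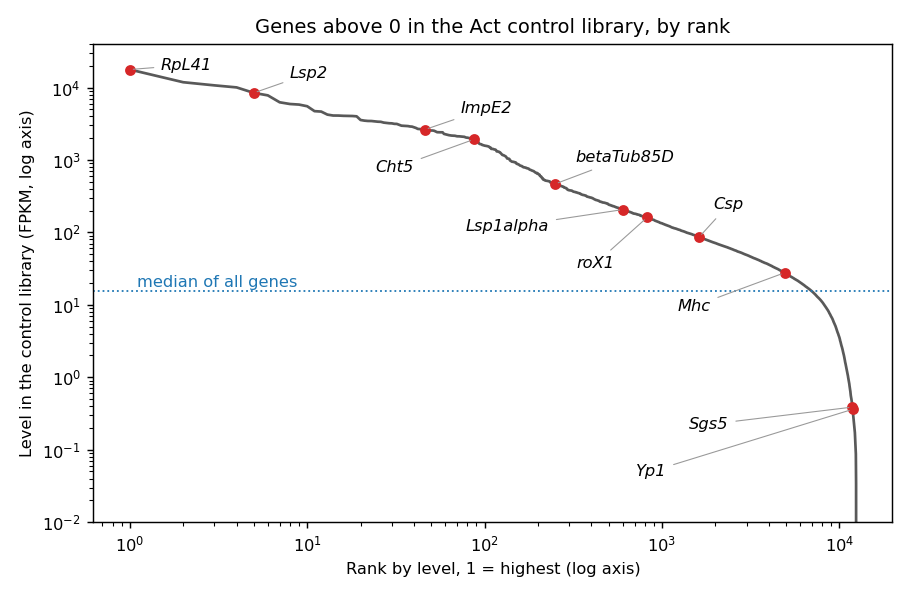
Level (FPKM, log axis, drawn down to 0.01) of each gene above 0 in the control library against its rank (log axis). Points mark named genes: RpL41 was highest at 17761 FPKM, the markers ImpE2, Cht5, betaTub85D, Lsp1alpha and roX1 lie between ranks 46 and 824, and Sgs5 and Yp1 lie on the steep lower end, under 1 FPKM.

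Translation genes headed the library. Of the 25 highest genes, 14 were cytosolic ribosomal protein genes by current symbol, led by RpL41 (17761 FPKM) and RpL39 (11859 FPKM). Counting by symbol leaves out any ribosomal protein gene listed under another name, here and below. Qm, rank 14 at 4113 FPKM, had no matched current symbol and is outside these counts. The 90 ribosomal protein genes recognised by symbol held 23.3% of the summed FPKM, and each of them was at 10 FPKM or more, against 58.7% of all genes. Both leaders have short transcripts, of 320 and 288 nt, where FPKM is most sensitive to the length correction. The elongation factor genes Ef1alpha48D (4728 FPKM) and eIF-5A (4051 FPKM) were in the same range. The first 50% of the summed FPKM was reached with 272 genes.

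Between the ribosomal protein genes stood a small set of secreted, cuticle and stress genes. Obp56a, an odorant-binding protein family gene, was rank 3 at 10730 FPKM. The hexamerin gene Lsp2, which encodes a serum protein stored by the larval fat body, was rank 5 at 8453 FPKM. The gene bnb measured 6263 FPKM, the small heat shock protein gene Hsp23 measured 5528 FPKM and the cuticle protein gene Cpr72Ea 4075 FPKM. Unnamed genes also ranked here: CG34247, on chromosome 3L from 16261185 to 16261605, was rank 4 at 10058 FPKM, and CG13023, on chromosome 3L from 16923914 to 16927434, was rank 6 at 7808 FPKM. Of the 60 highest genes, 39 were ribosomal protein genes by current symbol and 6 had only a CG number. Dcr-2, an enzyme gene of RNA interference, was rank 69 at 2146 FPKM. The labels state no further allele for the library, and the cause of this level was not tested.

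In some gene families a few members held most of the summed level. Families were picked for this description after their values were seen. Genes without an annotation match, or sharing one with another row, were left out of them. Of 50 odorant-binding protein genes, 25 were listed at 0 and 10 were at 10 FPKM or more, while Obp56a, Obp99b (4662 FPKM) and Obp99c (2940 FPKM) together held 85.7% of the family's summed FPKM, and Obp56a alone 50.2%. Obp44a was the other one above 1000 FPKM, at 2107 FPKM. Among 69 Cpr cuticle genes, Cpr72Ea alone held 78.7% of the sum, the next, Cpr78E, measured 251 FPKM, and 23 were listed at 0. Cht5 held 79.4% of the summed FPKM of 9 chitinase genes, with Cht6 (4.45 FPKM) left out. By contrast, the 35 glutathione S-transferase genes were spread more evenly, with GstD1, the highest at 946 FPKM, holding 29.2%.

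Chemoreceptor genes were near the bottom. Of 58 odorant receptor genes 32 were listed at 0 and 1, Or43b at 17.3 FPKM, exceeded 10 FPKM. Of 58 gustatory receptor genes 31 were at 0 and the highest, Gr43a, a fructose sensor, measured 3.44 FPKM. Of 60 ionotropic receptor genes 34 were at 0, and Ir94d was highest at 15.7 FPKM. Within actins, the cytoplasmic genes Act5C (3207 FPKM) and Act42A (728 FPKM) stood above the muscle genes Act57B (207 FPKM) and Act87E (179 FPKM).

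Fat body genes were the most abundant tissue list. Of 16 members, 15 were at 10 FPKM or more and 3 above 1000 FPKM, with a list median of 184 FPKM. After Lsp2 came Fbp2 (2005 FPKM) and Fbp1 (1551 FPKM), the latter a receptor for serum proteins. The lipoprotein gene Rfabg (current symbol apolpp) measured 661 FPKM. The hexamerin genes did not run at equal levels: Lsp1beta measured 415 FPKM, Lsp1alpha 207 FPKM and Lsp1gamma 156 FPKM. The Lsp1alpha and Lsp1gamma levels rested on 3015 and 2160 fragments, so their order is larger than the counting error. The lowest member was CG3523 (current symbol FASN1), a fatty acid synthase gene, at 8.48 FPKM. In a bulk sample, fewer cells of a type and less RNA per cell cannot be told apart, which holds for every tissue list here.

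Salivary gland glue RNA was close to the detection floor. Of the 12 glue and pre-glue genes, 9 were listed at 0 and none reached 1 FPKM. The other ones measured 0.387 FPKM (Sgs5), 0.128 FPKM (Eig71Ee) and 0.0437 FPKM (Sgs1). For the 9 genes of this list whose fragments could be read back, the total was 3 fragments, 1 for each of those genes. For Sgs3, a major glue gene listed at 0, 3 fragments would have been 0.553 FPKM. Of 6 factors of the gland's secretory program, PH4alphaSG1 and PH4alphaSG2, prolyl hydroxylase genes named for the gland, were listed at 0. The transcription factor genes fkh (10.1 FPKM) and sage (4.25 FPKM) were above 0, as were CrebA (17.5 FPKM) and pip (24.7 FPKM), both of which are also used outside the gland. Glue RNA is a textbook mark of wandering larvae, and the cause of these levels was not tested.

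Digestive enzyme genes of the midgut were also mostly at or near 0. Of 44 members, 24 were listed at 0 and 3 were at 10 FPKM or more, or 6.82% against the background of 58.7%. Of 9 trypsin genes 8 were listed at 0, and alphaTry measured 0.251 FPKM on 1 fragment. None of the 16 Jonah protease genes passed 1.08 FPKM. The exceptions were the maltase gene CG30359 (current symbol Mal-A5), at 211 FPKM, and the lysozyme genes LysX (40.6 FPKM) and LysD (28.9 FPKM). Lysozyme genes are near-identical copies, so their single values are uncertain. Of 11 further gut genes added after the values were seen, 1 was at 10 FPKM or more, Myo31DF, an unconventional myosin gene also used outside the gut, at 23.01 FPKM. Among them GATAe, a regulator of endoderm, measured 1.35 FPKM, mex1 4.66 FPKM and Peritrophin-15a was listed at 0.

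Malpighian tubule genes, of the excretory organ, were low as well, with 2 of 12 at 10 FPKM or more and a median of 2.90 FPKM. The zinc transporter gene ZnT35C led at 36.8 FPKM. Uro, which encodes urate oxidase of the tubules, measured 0.312 FPKM on 2 fragments, and the tubule peptide receptor gene capaR 0.274 FPKM. The lists for gut enzymes, gland glue and tubule thus had low medians, and the fat body list a high one. The low lists were not alike, since 7 of 12 tubule genes were at 1 FPKM or more and none of the 12 glue genes was. The neuron and neuropeptide lists described below also had low medians, 3.96 and 3.19 FPKM, near that of the tubule list.

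**Figure D2:**
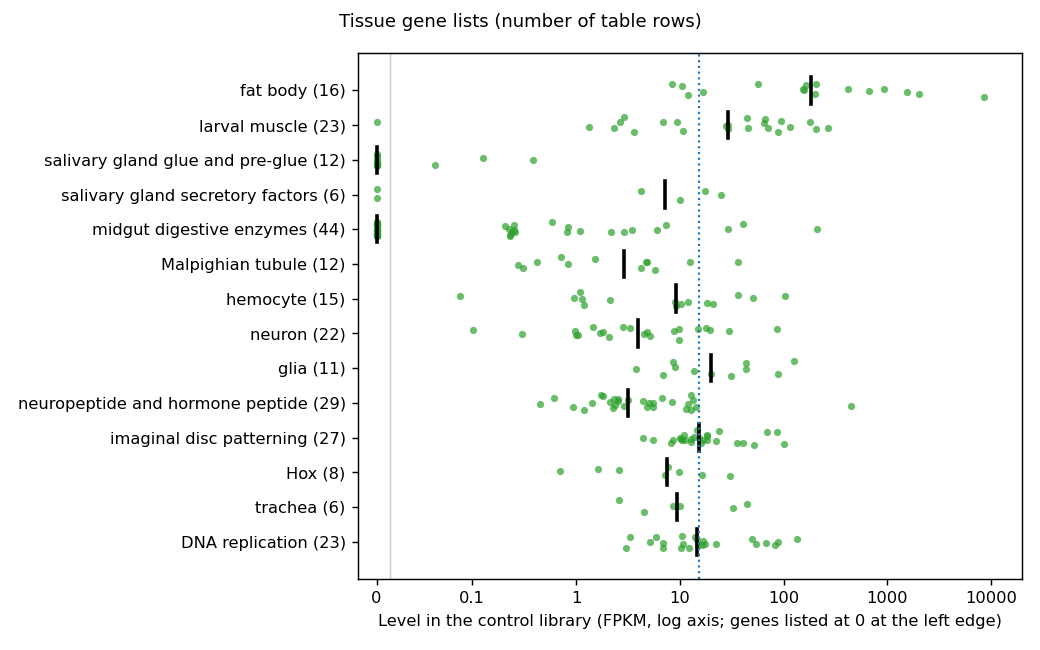
Level (FPKM, log axis, genes listed at 0 at the left edge) of each member of the tissue gene lists in the control library, with list sizes in parentheses. Bars are list medians and the dotted line is the median of all genes, 15.4 FPKM; fat body stands at 184 FPKM, and the glue and midgut medians are at 0.

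Muscle genes showed a wide spread within 1 list. Of 23 members 15 were at 10 FPKM or more and the median was 29.2 FPKM. Tm1, a tropomyosin gene with forms outside muscle, was highest at 267 FPKM, followed by Act57B at 207 FPKM. The myosin light chain genes Mlc1 (114 FPKM) and Mlc2 (93.9 FPKM), and the troponin genes up (71.0 FPKM) and wupA (65.5 FPKM) of the thin filament, were above the myosin heavy chain gene Mhc (27.7 FPKM). The giant and thick-filament genes were lower still, sls at 6.85 FPKM, Prm at 2.89 FPKM, bt at 2.32 FPKM and Unc-89 at 1.34 FPKM. A troponin C gene, TpnC47D, was listed at 0, while TpnC73F measured 87.6 FPKM.

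The nervous system lists differed from each other. Of 22 neuron genes 5 were at 10 FPKM or more, with a median of 3.96 FPKM. Csp, a synaptic vesicle chaperone gene also used elsewhere, led at 86.5 FPKM, and n-syb, the neuronal synaptobrevin gene, measured 29.9 FPKM. The pan-neuronal gene elav measured 8.72 FPKM and the sodium channel gene para 0.102 FPKM. Of 11 glia genes 7 were at 10 FPKM or more and the median was 19.9 FPKM, with nrv2, a sodium pump subunit gene, at 127 FPKM, moody, of the blood-brain barrier, at 43.1 FPKM and the glial regulator repo at 8.98 FPKM. Among 29 neuropeptide and peptide hormone genes, each was above 0 and 7 were at 10 FPKM or more. Nplp4 stood apart at 445 FPKM. Ptth, which encodes the brain hormone that drives ecdysone production, measured 14.2 FPKM, Akh, of the energy-mobilising corpora cardiaca, 12.7 FPKM and ETH, the moulting hormone of the Inka cells, 11.4 FPKM on 37 fragments. The insulin-like peptide genes Ilp3, Ilp2 and Ilp5 measured 6.69, 1.42 and 0.620 FPKM on 22, 4 and 1 fragments.

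Blood cell genes split into moderate and low members. Of 15, 7 were at 10 FPKM or more, led by crq, a scavenger receptor gene, at 102 FPKM and the peroxidasin gene Pxn at 50.5 FPKM. The plasmatocyte genes Hml (1.14 FPKM) and eater (1.19 FPKM) were low. The crystal cell genes lz (1.104 FPKM) and CG8193 (current symbol PPO2, 0.948 FPKM) were close to them. The counting intervals of CG8193 (0.496 to 1.68 FPKM) and eater (0.739 to 1.79 FPKM) overlapped. The crystal cell gene proPO-A1 (current symbol PPO1) was lower, at 0.0767 FPKM on 1 fragment. The other members under 10 FPKM were He (2.13 FPKM), vkg (9.06 FPKM) and nimC1 (9.12 FPKM). 

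Imaginal disc patterning genes were all present at moderate levels. All 27 were above 4 FPKM and 22 were at 10 FPKM or more, with a median of 15.3 FPKM, close to that of all genes. The homeobox cofactor gene hth was highest at 101 FPKM, followed by fng, a Notch glycosyltransferase gene, at 86.1 FPKM and ci, the Hedgehog effector, at 69.0 FPKM. Wing pouch regulators were lower, with sd at 51.4 FPKM, nub at 12.7 FPKM and vg at 8.25 FPKM. The eye regulators eya, so and ey measured 13.6, 10.3 and 4.39 FPKM, so RNA of patterning genes of more than the wing was present. Of 8 Hox genes, which mark body regions, abd-A of the abdomen was highest at 30.7 FPKM and Scr of the anterior thorax next at 16.3 FPKM. These were the 2 of the list at 10 FPKM or more. Abd-B, of the posterior abdomen, measured 7.68 FPKM, Antp and Ubx, of thoracic and more posterior segments, 7.27 and 9.78 FPKM, and the head gene lab 0.699 FPKM. Of 23 DNA replication and G1/S genes 17 were at 10 FPKM or more, with dUTPase at 133 FPKM, the PCNA gene mus209 at 83.5 FPKM, and the origin recognition gene Orc1 lowest at 3.01 FPKM. The 6 tracheal genes ran from btl at 2.61 FPKM to verm, a chitin deacetylase gene, at 44.7 FPKM.

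Set against the source label, the library held RNA of fat body and testis genes, which belong to tissues other than the wing disc. Beside the extraction protocol, which describes whole larvae, stand the glue genes, of which 9 of 12 were listed at 0, and the midgut enzyme genes, of which 24 of 44 were. The labels do not settle what tissue was collected.

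The ecdysone response was uneven across its classes. Over the early regulators, the Imp and Eip genes and the Eig71E genes, 19 of 36 members were at 10 FPKM or more, or 52.8%, a share near the background of 58.7%. Of 16 receptor and early regulator genes, 10 were at 10 FPKM or more and the median was 28.1 FPKM. The receptor subunit genes EcR and usp measured 37.6 and 31.2 FPKM. The early genes Eip75B and Eip74EF measured 35.7 and 28.0 FPKM, and Eip93F, known from later stages of metamorphosis, 36.5 FPKM. The early gene br, the gatekeeper of pupal development, was lower at 6.64 FPKM. Hr78 was the highest of the class at 91.2 FPKM.

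The nuclear receptor genes that follow the early genes into the prepupal period were at unequal levels. Hr39 and Eip78C measured 33.3 and 28.2 FPKM. Hr46 (known as DHR3) measured 2.23 FPKM, Hr4 1.97 FPKM and ftz-f1, the competence factor of the prepupa, 5.24 FPKM. The Eig71E genes, late puff genes of the salivary gland, were low, with 1 of 11 at 10 FPKM or more and a median of 3.02 FPKM. Eig71Ej was the exception at 53.7 FPKM on 63 fragments, and Eig71Eh and Eig71Ei were listed at 0.

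Among Imp and Eip genes, ImpE2 stood far above the others of its class. Of 9 members 8 were at 10 FPKM or more, but the next after ImpE2 was Eip71CD at 123 FPKM, and ImpE1 and ImpE3, both also ecdysone-inducible in discs, measured 18.4 and 15.9 FPKM. ImpL2, an insulin-binding protein gene, measured 69.1 FPKM, and ImpL3, the lactate dehydrogenase gene, 11.1 FPKM. The protease gene Sb, needed for disc eversion, was lowest at 4.63 FPKM. Small heat shock protein genes, several of which ecdysone induces at this stage, were the highest of the hormone lists, with a median of 304 FPKM at percentile 97.2. Hsp23 and Hsp27 measured 5528 and 1899 FPKM, Hsp26 472 FPKM and Hsp22 108 FPKM, and l(2)efl, lowest, 8.98 FPKM. The heat-inducible Hsp70 genes were not high with them: of 6 genes of that list in the table, Hsp68 measured 59.8 FPKM and the others between 0 and 0.677 FPKM. The Hsp70 genes are near-identical copies that can share reads.

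Ecdysone synthesis genes, active in the prothoracic gland, were at modest levels. Of 14, 6 were at 10 FPKM or more. The cholesterol transport gene Npc1a led at 50.7 FPKM, and the hydroxylase genes sad and phm measured 21.1 and 15.9 FPKM. The gland-limited gene spok measured 12.5 FPKM, nvd 1.52 FPKM and dib 0.871 FPKM, so genes of the same pathway differed widely within 1 library. The ecdysone-inactivating gene Cyp18a1 measured 5.47 FPKM and Eo was listed at 0. On the juvenile hormone side, the synthesis gene jhamt was listed at 0 and the response gene Kr-h1 measured 0.195 FPKM, whereas the breakdown genes Jhe and Jheh2 measured 136 and 52.3 FPKM.

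Cuticle genes divided by class. Of 15 Lcp larval cuticle genes 9 were listed at 0, and the highest were Lcp1 at 16.8 FPKM and Lcp65Ad at 13.8 FPKM. Among 13 pupal and adult cuticle genes 3 were at 10 FPKM or more, Edg91 at 34.4 FPKM, Pcp at 13.2 FPKM and Edg78E at 12.4 FPKM, and Edg84A was listed at 0. Cuticle protein genes occur in near-identical copies, so single values are uncertain. Chitin synthesis and turnover genes were higher, with 21 of 27 at 10 FPKM or more and a median of 30.5 FPKM. The chitin synthase gene kkv measured 62.2 FPKM, the precursor enzyme gene mmy 86.5 FPKM, and the chitinase gene Cht3 182 FPKM. Of 21 tanning and yellow family genes 8 were at 10 FPKM or more. The melanin pathway gene yellow-f led at 135 FPKM, whereas ple and Ddc, which supply the catecholamines for tanning, measured 1.05 and 3.84 FPKM and y 0.537 FPKM.

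**Figure D3:**
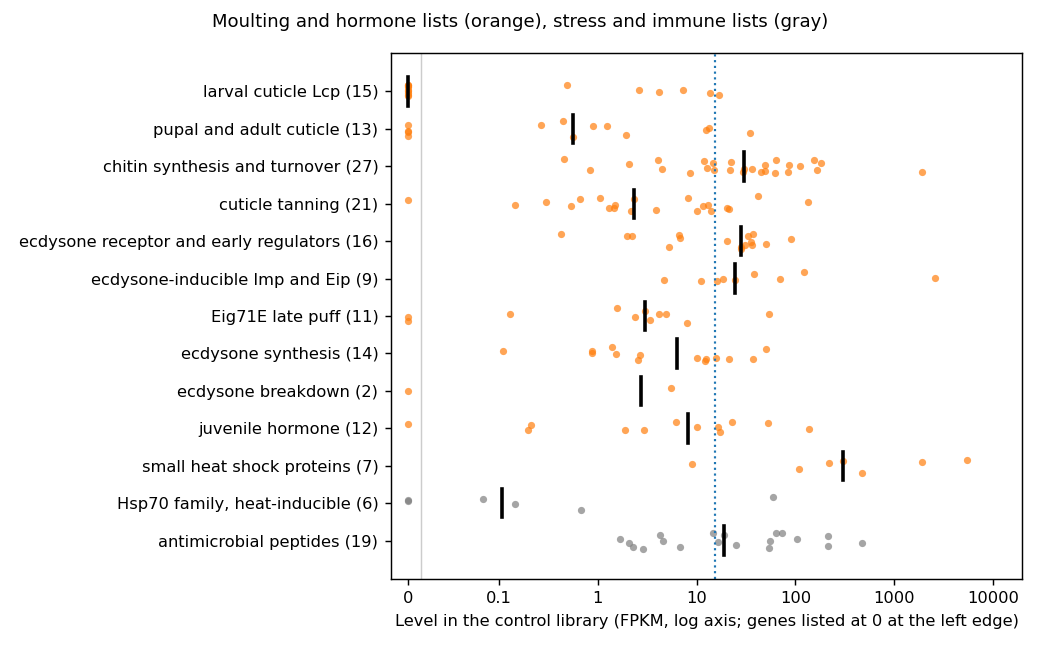
Level (FPKM, log axis, genes listed at 0 at the left edge) of each member of the moulting and hormone lists (orange) and of the stress and immune lists (gray) in the control library. Bars are list medians, at 304 FPKM for small heat shock proteins, 28.1 FPKM for ecdysone early regulators and 0 for Lcp larval cuticle genes; the dotted line is the median of all genes.

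Immune peptide genes were above 0 throughout. Of 19 antimicrobial peptide genes 12 were at 10 FPKM or more, or 63.2%, a share near the background of 58.7%. The median was 18.9 FPKM. The drosomycin family genes dro5 and Drs measured 474 and 216 FPKM, the defensin gene Def 213 FPKM and the diptericin gene Dpt 103 FPKM, and dro4 was lowest at 1.69 FPKM. The transcripts of dro5, Drs and Def have 364, 387 and 399 nt. No fragments were read back for them, and levels of such short transcripts are the least reliable.

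Testis RNA was abundant. Of 33 testis list members in the table, 31 (93.9%) were at 10 FPKM or more and 24 at 100 FPKM or more, with a list median of 299 FPKM at percentile 97.1, above the median of the fat body list. Mst87F, a sperm-tail gene, was highest at 1041 FPKM, followed by ocn at 802 FPKM and Mst84Dc at 760 FPKM. The protamine-like chromatin genes Mst77F and Mst35Bb, which package sperm DNA, measured 720 and 324 FPKM, and Mst35Ba, a near-identical copy of the latter, 189 FPKM. The 7 leucyl aminopeptidase genes of the S-Lap family, which encode sperm proteins, ran from 47.1 FPKM for CG18369 (S-Lap5) to 748 FPKM for CG6372 (S-Lap1). The lowest was Mst57Da, which is known as an accessory gland gene, at 0.322 FPKM.

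Spermatocyte transcription regulators, and germ cell genes of earlier stages, were far lower than the testis list. The lists hold different kinds of genes, so the levels do not order germline stages. The 11 spermatocyte transcription regulators had a median of 8.97 FPKM, from comr at 2.39 FPKM to Taf12L at 50.7 FPKM, and 5 were at 10 FPKM or more. Germ cell genes of earlier stages had a median of 2.996 FPKM over 13 members, with 4 at 10 FPKM or more. The germ cell helicase gene vas measured 2.996 FPKM, the spermatogonial factor bam 1.37 FPKM on 14 fragments and the gap junction gene zpg 0.980 FPKM. The highest of that list was tud, a piRNA pathway scaffold gene, at 45.2 FPKM.

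Testis-biased paralogs were set beside their somatic relatives. All 32 listed pairs, some of which share a somatic gene, were found in the table, and the testis member was higher in 4. The testis cytochrome c gene Cyt-c-d measured 179 FPKM beside 80.0 FPKM for Cyt-c-p, the mitofusin gene fzo 51.0 FPKM beside 28.6 FPKM for Marf, tomboy40 85.1 FPKM beside 46.2 FPKM for Tom40, and Pglym87 74.6 FPKM beside 63.3 FPKM for Pglym78. At a margin of 2-fold only the cytochrome c pair remained among the 32. Across pairs the testis member made up a median of 24.5% of the summed FPKM of its pair. Of the tubulin pair, betaTub85D made up 19.5%, with betaTub56D at 1923 FPKM. Proteasome subunit paralogs ranged from 5.27% for Prosalpha3T to 30.0% for CG31742 (current symbol Prosbeta5R2). The testis TAF genes ranged from 15.1% for mia, 27.1% for nht and 32.3% for can to 43.0% for sa and 44.9% for Taf12L. Paralogs can share reads where their sequences are alike, and overlap in counting was not tested.

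**Figure D4:**
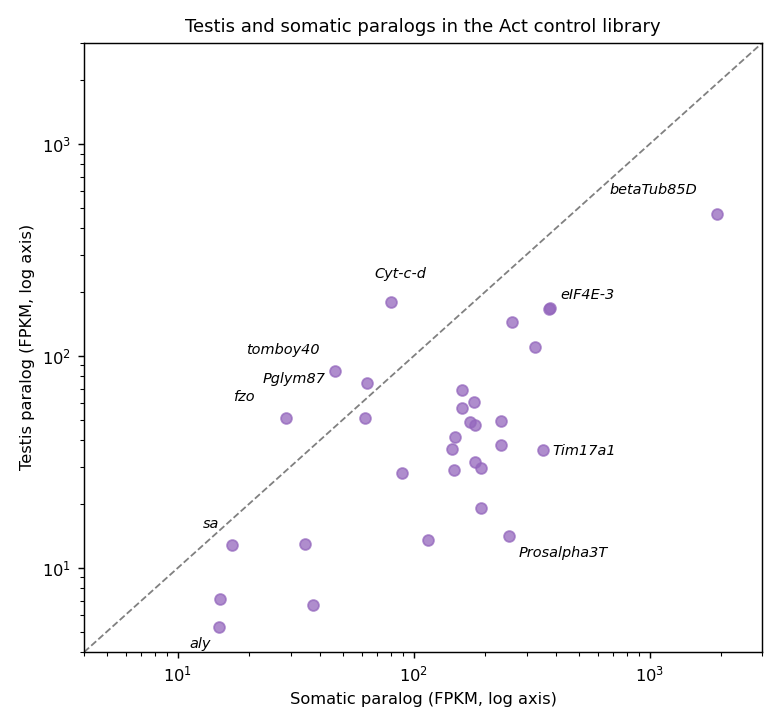
Level of the testis-biased member against that of its somatic paralog (FPKM, both axes log) in the control library, 1 point for each of 32 pairs. The dashed line marks equal levels; 4 pairs lie above it, with Cyt-c-d at 179 FPKM beside Cyt-c-p at 80.0 FPKM the farthest.

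Male RNA was also seen in the roX genes and some Y-linked genes. The roX RNAs measured 161 FPKM (roX1) and 104 FPKM (roX2), above the protein genes of the complex. Of those, the helicase gene mle measured 31.8 FPKM, msl-2, which is translated in males, 18.2 FPKM, msl-3 17.7 FPKM, msl-1 10.8 FPKM and the acetyltransferase gene mof 8.80 FPKM. The 12 genes of the Y-linked list took up 15 rows of the table, of which 7 were listed at 0 and 2 were at 10 FPKM or more. These were ARY at 17.1 FPKM and Pp1-Y2 at 11.8 FPKM. Of the sperm-tail dynein heavy chain genes, kl-3 measured 1.13 FPKM, kl-2 0.867 FPKM on 69 fragments, and kl-5 0.614 FPKM.

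Sex determination genes were expressed in a band from fru at 6.84 FPKM to snf at 126 FPKM, and 9 of 10 were at 10 FPKM or more. Sxl measured 44.0 FPKM, tra 23.4 FPKM and dsx 12.6 FPKM. The table has 1 value for each of them and cannot tell male from female splice forms, so no sex ratio follows from it.

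Female-limited and adult programs were mostly near 0. Over the yolk, chorion and vitelline, and oocyte lists, 3 of 27 members were at 10 FPKM or more, against 58.7% of all genes, and 14 were listed at 0. Yolk and eggshell genes belong to adult females, so their levels cannot tell whether female larvae were in the pool. The yolk protein genes Yp3, Yp2 and Yp1 measured 9.35, 0.610 and 0.361 FPKM. Of 14 eggshell genes 12 were at 0. The members above 10 FPKM were the oocyte genes orb (60.6 FPKM), grk (24.9 FPKM) and BicC (23.9 FPKM), named after their values were seen, of which orb is also known from the testis. The oocyte gene osk was listed at 0. Of 17 accessory gland genes of the adult male 12 were at 0. Acp95EF, with a transcript of 243 nt, was the exception at 99.1 FPKM, and such short transcripts are measured least reliably. Over the adult muscle, adult eye and early embryo lists, 3 of 27 genes were at 10 FPKM or more, against 58.7% of all genes. These were the flight muscle actin gene Act88F, at 110 FPKM on 916 fragments, Act79B (21.2 FPKM) and the gap gene kni (14.8 FPKM).

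**Figure D5:**
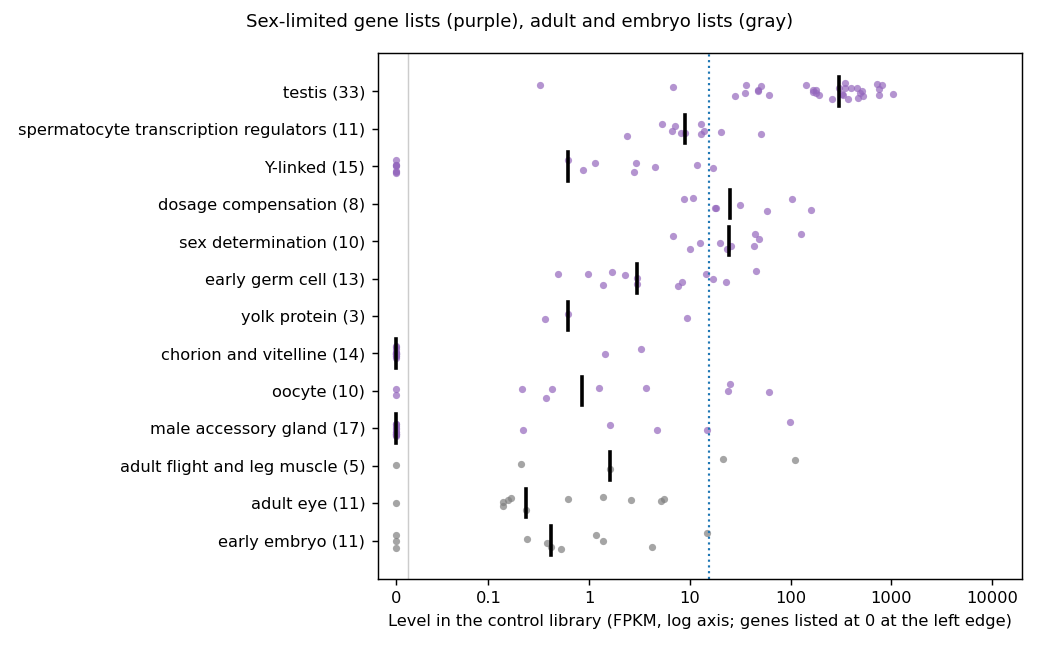
Level (FPKM, log axis, genes listed at 0 at the left edge) of each member of the sex-limited lists (purple) and of the adult and embryo lists (gray) in the control library. Bars are list medians, at 299 FPKM for testis, 8.97 FPKM for spermatocyte transcription regulators and 0 for eggshell and accessory gland genes; the dotted line is the median of all genes.

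Levels differed by chromosome. Leaving out small structural RNAs, the median over genes was 16.5 FPKM on the major autosome arms (11214 genes), 13.4 FPKM on X (2160 genes) and 39.3 FPKM on the small chromosome 4 (81 genes). Among genes at 1 FPKM or more the medians were 23.7, 18.0 and 43.2 FPKM in the same order. Of 24 rows placed on Y, 16 (66.7%) were listed at 0 and the 6 at 1 FPKM or more had a median of 3.74 FPKM. Some of these rows belong to the same gene, among them those of PRY and WDY, so this share is over rows and not over genes. The 4 major arms were close to each other, with medians from 15.4 FPKM on 3L to 16.9 FPKM on 2L and 2R. These are descriptions over genes, which are not replicates. Over 13267 genes of 400 nt or more, Spearman's rho between transcript length and FPKM was -0.01, but the relation was not flat. In 5 length classes of about equal size, from the shortest to the longest, the medians were 15.4, 18.6, 17.8, 15.9 and 13.4 FPKM. The 467 genes under 400 nt had a median of 0.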

How the data were processed

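The authors deposited FPKM values for 13990 genes. Software listed for them, per the submitters' processing notes, was TopHat2 2.0.12, CASAVA 1.4 and Cuffdiff 2.2.1, with genome dm6 and no stated roles. For annotation, strand setting and scaling the sources used here give nothing, so overlapping and antisense genes cannot be told apart. Only the Act column was used, and no ratio to another library was formed. Per the labels' protocols, 4 µg of total RNA was depleted of ribosomal RNA.

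Symbols were matched to the RefSeq Release 6 gene table (13734, or 98.2%), and lengths and coordinates came from Ensembl 115 (BDGP6.54). Of 582 list genes 580 were found. Depth was read from the 400 lowest values of single-transcript genes over 1000 nt. Of these, 81.0% came out whole to a tolerance of 0.2 fragments (40% for evenly spread values at a fixed depth). Because the depth was chosen on the same values, this share is no independent check of it. The fragment counts and intervals rest on that depth. Reading the depth was also tried on simulated data, for which no result is given here. Fragments were read back for 6262 single-transcript genes of 400 nt or more, with exact Poisson 95% intervals, using a length reduced by 210 nt. A percentile is the share of genes ranked below, with ties shared.

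The gene lists, members and thresholds were chosen with earlier results of these data known. Named genes were the 5 markers, the 25 highest genes, the 3 highest and the lowest of each list, members of lists of up to 12 genes, paralog pairs and the 10 highest genes of each chromosome arm. Other named genes were chosen after their values were seen. Computation used Python 3.11.15, pandas 2.3.3 and scipy 1.17.1.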

Additional observations from a re-analysis of the deposited data

How the results depend on the processing

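Across 22 alternatives for 6 results, 20 counts stayed within 1.5 times the reported one. The midgut list had 5 members past a threshold of 5 FPKM, compared with 3 at 10 FPKM, since a lower threshold admits more genes. Of the paralog pairs, 1 had a testis member at least 2-fold higher, compared with 4 higher by any margin. Genes past the threshold numbered 9521 at 5 FPKM and 6078 at 20 FPKM. The lists with a median above that of all genes numbered 11 of 40, and between 10 and 15 with other ranks, means or pseudocounts. No paired analysis was possible because a single library was described. At this depth, levels resting on a few fragments are not distinguishable from each other.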
